A study of Mus musculus with 8 samples.

Results

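The comparison was of tumor cells sorted as CD45+CD11b+Ly6Chi, by which the study defines monocytic myeloid-derived suppressor cells (mMDSCs), between Ythdf2-cKO and WT mice after ionizing radiation (IR) of their MC38 tumors. MC38 is a mouse colon carcinoma line grown under the skin of C57BL/6J mice. The methods give young adult mice of both sexes. Both genotypes carried floxed Ythdf2 alleles. WT mice were Ythdf2 fl/fl without Cre, and Ythdf2-cKO mice were Lyz Cre+; Ythdf2 fl/fl. The Lyz Cre driver sits in the Lyz2 gene and is active in monocytes, macrophages and neutrophils, so the deletion is not limited to mMDSCs. The tumors had received 1 dose of 20 Gy, and cells were sorted 3 days later. Cells of 5 mice were pooled per genotype, and the pools were stained with 1 of 2 hashtag antibodies before they were mixed in 1 droplet library (B0301 for WT, B0302 for Ythdf2-cKO). The hashtags were carried by antibodies to CD45 and MHC class I. The series held 3 further libraries of the same design from unirradiated tumors, blood and blood after tumor IR.

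Barcodes were kept with at least 500 gene UMIs (unique molecular identifiers, counts of captured transcripts), at least 200 genes, at most 25% mitochondrial UMIs and at least 20 hashtag UMIs. Of 12763 barcodes of the irradiated tumor that passed the RNA filters, 7844 also passed the hashtag filter. A cell was labelled cKO where B0302 was at least 4 times B0301, and WT where B0301 was at least as high as B0302. These rules gave 3976 cells labelled cKO and 3367 labelled WT, which is 7343 of the 30281 labelled cells of the 4 libraries, and left 501 barcodes in neither group. Cells labelled cKO held 26570770 gene UMIs with a median of 6196.5 per cell, and cells labelled WT held 22408082 with a median of 6097. Each group was 1 pool of mice. No test between genotypes was therefore possible, and every interval given here is a 95% interval for counting error only.

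YTHDF2 is a cytoplasmic reader of N6-methyladenosine (m6A), the most common internal mark of messenger RNA, and it recruits enzymes that shorten and degrade the marked transcripts. Monocytes that enter a tumor mature into macrophages and dendritic cells, and many of them take on suppressive functions, such as arginine depletion by ARG1. The study asked how loss of YTHDF2 in myeloid cells alters mMDSCs after IR, with attention to NF-κB signaling, chemokines and suppressive genes.

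The irradiated tumor matrix shared most of its barcodes with the control tumor matrix. Of the 7343 cells, 7113 (96.9%) also had at least 500 gene UMIs under the same barcode in the control tumor matrix, where they held a median of 3685 gene UMIs and 0 hashtag UMIs. The ratio of control to irradiated UMIs varied little between these barcodes, with a median of 0.59 and quartiles of 0.58 and 0.597. In the control matrix, Lyz2 was 5600 CPM (gene UMIs scaled to the same total) in barcodes labelled WT here and 138 CPM in those labelled cKO. Conversely, 4915 of the 4919 barcodes with too few hashtag UMIs in the irradiated matrix passed every filter in the control matrix. Gene UMIs of the same barcodes were thus present in both tumor matrices, and the assignment of a barcode to the irradiated tumor rested on its hashtag UMIs. The barcodes of 109 cells labelled WT and 118 labelled cKO reached 500 gene UMIs in no other matrix. In these cells the ratios of Ythdf2 and Lyz2 given below were 0.73 and -3.10. At a UMI ratio of 0.59 that minimum favors shallow barcodes, so these cells may differ from the others in depth as well. Only 161 of the 7343 cells passed every filter in both matrices. Leaving them out, an alternative chosen after the data were seen, gave 20 genes higher and 80 lower in cells labelled cKO, the same counts as with them.

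The label genes were measured first. Ythdf2 (mm10 chr4:132184912-132212303, minus strand) was 339 CPM in cells labelled cKO and 55.0 CPM in cells labelled WT, a log2 ratio of 2.62 (2.54 to 2.71). The ratio was thus opposite to the direction that a loss of the transcript would give. The counts come from 3′ transcript ends, and the exon removed from the floxed allele is not given in the sources used here, so that Ythdf2 counts from outside the deleted part check nothing about the deletion. The labels could not be checked by the targeted gene, and the groups are called by their labels for that reason. Ratios of 2.70 in the control tumor, 3.15 in control blood and 3.26 in blood after IR had the same sign. The other YTH-domain readers were close to 0, with log2 ratios of -0.12 for Ythdf1, 0.15 for Ythdf3, -0.02 for Ythdc1 and 0.04 for Ythdc2. None of the 9 m6A writers and erasers passed the limit, and they ranged from -0.07 (Rbm15) to 0.28 (Mettl3).

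Lyz2 (chr10:117277331-117282321), the macrophage lysozyme gene that carries the Cre insertion, was 5620 CPM in cells labelled WT and 142 CPM in cells labelled cKO, a log2 ratio of -5.31 (-5.36 to -5.26). Its neighbor Lyz1 (chr10:117287797-117292868), a closely related lysozyme, went the other way, from 5.67 CPM to 108 CPM (log2 ratio 4.24, 4.0 to 4.52). At least 1 Lyz1 UMI was found in 1.81% of cells labelled WT and 8.5% of cells labelled cKO. Reads of the paralogs can be hard to assign, which was not tested, so the Lyz1 level is uncertain. The expected share of cells with at least 1 Lyz2 UMI, after thinning every cell to 1000 UMIs, was 74.0% in cells labelled WT and 6.57% in cells labelled cKO (83.2% and 25.5% without thinning). Thinning left out 147 and 146 shallower cells. In droplets without a cell Lyz2 was 2970 CPM, far above its level in cells labelled cKO.

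The hashtag ratio itself tracked Lyz2 and Ythdf2. Lyz2 lay between 3632 and 8850 CPM in the 5 bins labelled WT. It was 2855 and 1794 CPM in the bins assigned to neither group. Among cells labelled cKO, the 235 with B0302 at 4 to 8 times B0301 still had 1454 CPM, against 135 CPM at 8 to 16 times and 51.8 CPM at 16 times or more. Ythdf2 was between 45.4 and 60.9 CPM in the first 4 bins and 349 CPM in the last. In the WT group, the 187 cells with ratios of 1/2 to 1 stood apart, with 154 CPM of Ythdf2 and 56.0 CPM of Lyz1. The edges of both groups therefore held an intermediate signal, and values under stricter hashtag rules are given beside the results below that were recomputed with them. Lyz1 did not rise evenly along the hashtag ratio. Among cells labelled cKO it was 337 CPM at 4 to 8 times, 122 CPM at 8 to 16 times and 88.3 CPM in the last bin. With margins of 4 and 10 for both labels the Lyz1 ratio was 5.61 and 5.63.

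**Figure D1:**
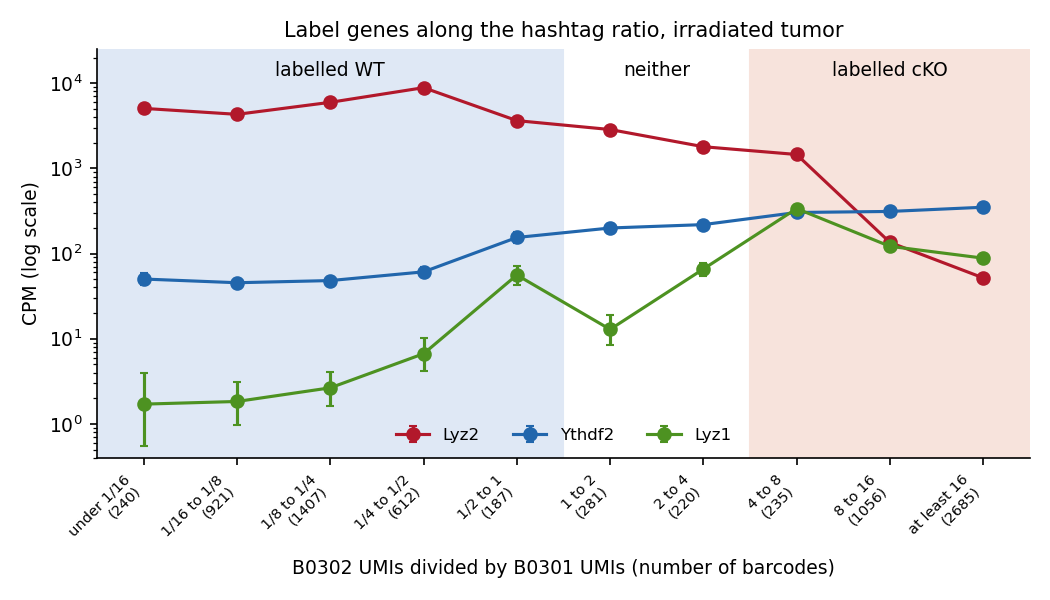
CPM of Lyz2, Ythdf2 and Lyz1 on a log axis in 10 bins of the ratio of B0302 to B0301 UMIs, with 95% Poisson intervals and the number of barcodes in each bin. Lyz2 drops from 5055 CPM in the first bin to 51.8 CPM in the last, while the 4 to 8 bin, already labelled cKO, sits at 1454 CPM.

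Clustering gave 15 clusters, which were named from marker genes as X-like where at least 3 markers were raised. Macrophage-like cells (clusters led by Mgl2 and Cdh1, by Pf4 and Mrc1, and by Ccl8) and monocyte-like cells (led by interferon-induced genes such as Rsad2, or by Ace and Hp) made up most of the sort. Neutrophil-like, conventional dendritic cell-like, mature dendritic cell-like, NK cell-like and fibroblast-like clusters were also present. Clusters that met no name held 20.6% of cells labelled WT and 21.5% of cells labelled cKO. The Mgl2 and Cdh1 cluster (1175 cells) had the minimum of 3 raised macrophage markers, against 8 in the Pf4 and Ccl8 clusters. At a clustering resolution of 1.2, macrophage-like cells fell to 8.88% of WT and 11.7% of cKO, and unnamed ones rose to 46.6% and 49.6%. Clustering with the label genes gave macrophage-like shares of 17.7% and 22.7%, and a resolution of 0.4 gave 32.6% and 40.4%. Values within macrophage-like cells use the main clustering. Ptprc, which encodes CD45, was 494 CPM in macrophage-like cells and 934 CPM in monocyte-like cells. It was 23.2 CPM in the fibroblast-like cells, where Itgam (CD11b) was 19.4 CPM and Ly6c2 was 69.5 CPM, so the markers of the sort were nearly absent there. Ly6c2 was 2550 CPM in monocyte-like cells and 1030 CPM in macrophage-like cells. In all cells it was 1152 CPM in those labelled cKO and 1484 CPM in those labelled WT (log2 ratio -0.37). With the 10-fold margin the direction turned, at 1140 against 1010 CPM (0.17, 0.13 to 0.21). Xist, the RNA of the inactive X chromosome of females, had 1 UMI in each group. The Y chromosome genes Ddx3y and Eif2s3y had 1478 and 847 UMIs in cells labelled WT and 1980 and 1239 in cells labelled cKO. Both groups thus looked male, although the methods give mice of both sexes.

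The size of the Ythdf2 ratio differed between classes. It was 2.83 in macrophage-like cells (60.4 CPM in WT, 429 CPM in cKO), 2.71 in monocyte-like cells and 2.35 (1.78 to 3.06) in neutrophil-like cells. Mature dendritic cell-like cells had 2.10 (1.42 to 2.94), conventional dendritic cell-like cells 1.99 and NK cell-like cells 1.0 (0.14 to 2.05, from 13 and 49 UMIs). Fibroblast-like cells had 62.5 CPM in WT and 60.0 CPM in cKO, a ratio of -0.06 (-0.47 to 0.35). Lyz2 was lowest in relation to WT in monocyte-like cells, at -6.01, and it was -1.05 in fibroblast-like cells, where only 429 and 146 UMIs were counted. It was also -1.01 in mature dendritic cell-like cells, from 75 and 98 UMIs. The excess of Ythdf2 was thus seen in each named leukocyte class and not in the fibroblast-like cells, although the difference between classes had no replicate check.

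**Figure D2:**
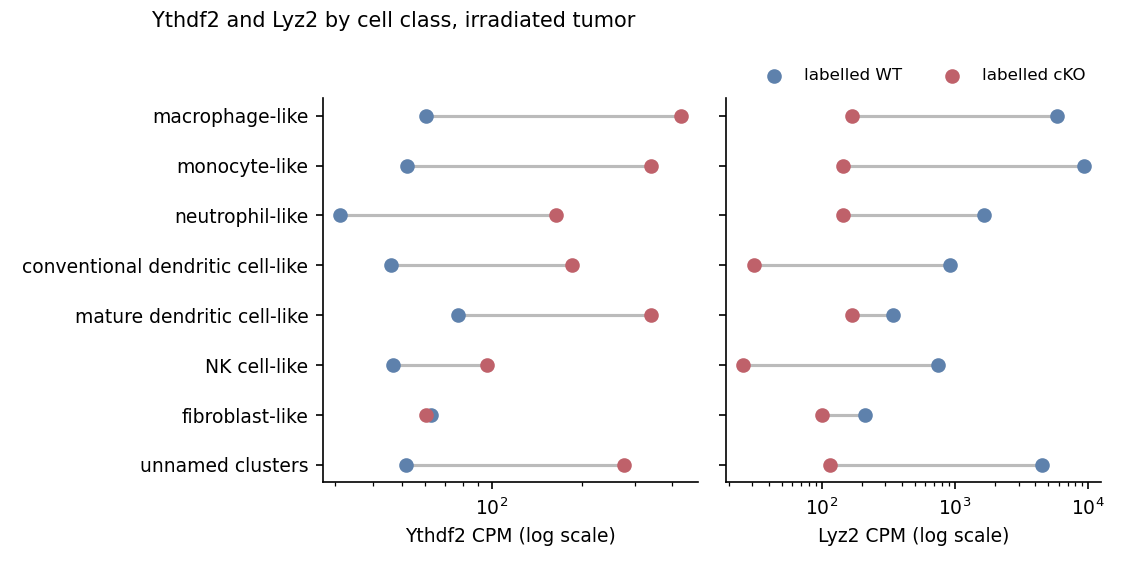
CPM of Ythdf2 (left) and Lyz2 (right) on log axes in cells labelled WT and cKO of each class, with a line joining the pair. Ythdf2 lies higher in cKO in each class but the fibroblast-like one, where the points are at 62.5 and 60.0 CPM.

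Class shares differed between the labels, but most of these differences depended on the hashtag rule. Macrophage-like cells made up 35.2% of cells labelled cKO (33.7 to 36.7) and 29.0% of cells labelled WT (27.5 to 30.6), a difference of 6.22 percentage points (4.08 to 8.35). The difference was 2.38 points when WT cells also needed a 4-fold margin, 15 with HTODemux calls, and -17.8 with a 10-fold margin for both. Monocyte-like cells showed the reverse, with 26.5% in cKO and 30.5% in WT, a difference of -3.99 points that became -2.06, -9.60 and 9.47 under the same rules. The hashtag counts themselves differed between classes. Macrophage-like cells labelled WT had a median of 1028 B0301 UMIs and monocyte-like cells 542.5, with medians of 112 and 102 for the other hashtag. As a result, 44.5% of the macrophage-like but 12.3% of the monocyte-like WT cells reached a 10-fold margin, and HTODemux kept 87.1% and 56.0% of those labelled cKO. The shares of these classes therefore had no sign that held under every rule.

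Neutrophil-like cells were 6.79% of cells labelled cKO (6.03 to 7.62) and 10.7% of cells labelled WT (9.67 to 11.8), a difference of -3.90 points. It stayed below 0 with margins of 4 (-3.41) and 10 (-0.516, -2.60 to 1.23) and with HTODemux (-5.09), although the interval at a margin of 10 spanned 0. In the 109 and 118 cells whose barcodes were in no other matrix it was 1.21 points, the opposite sign. Mature dendritic cell-like cells, led by Ccl22, Ccr7 and Fscn1, were 2.14% in cKO (85 cells) and 0.921% in WT (31 cells). This difference was 1.22 points and between 0.950 and 1.95 points under the other hashtag rules, with an interval that included 0 at a margin of 10 (-0.223 to 1.77). NK cell-like cells were 3.52% in cKO and 2.17% in WT, a difference of 1.35 points with a range of 0.590 to 2.25 under the other rules, and its interval included 0 with HTODemux (-0.200 to 1.41). Conventional dendritic cell-like cells were 3.02% and 3.47%, and the interval of their difference (-1.29 to 0.354) included 0. The sign turned between rules, with -1.03 points (-1.89 to -0.157) with HTODemux and 1.35 (0.0872 to 2.26) at a margin of 10. Fibroblast-like cells were 1.33% of cKO (53 cells) and 2.67% of WT (90 cells), and the difference of -1.34 points was -0.419 (-1.08 to 0.180) with a 4-fold margin for both, -2.18 (-3.67 to -1.09) at a margin of 10 and -1.53 (-2.19 to -0.881) with HTODemux.

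**Figure D3:**
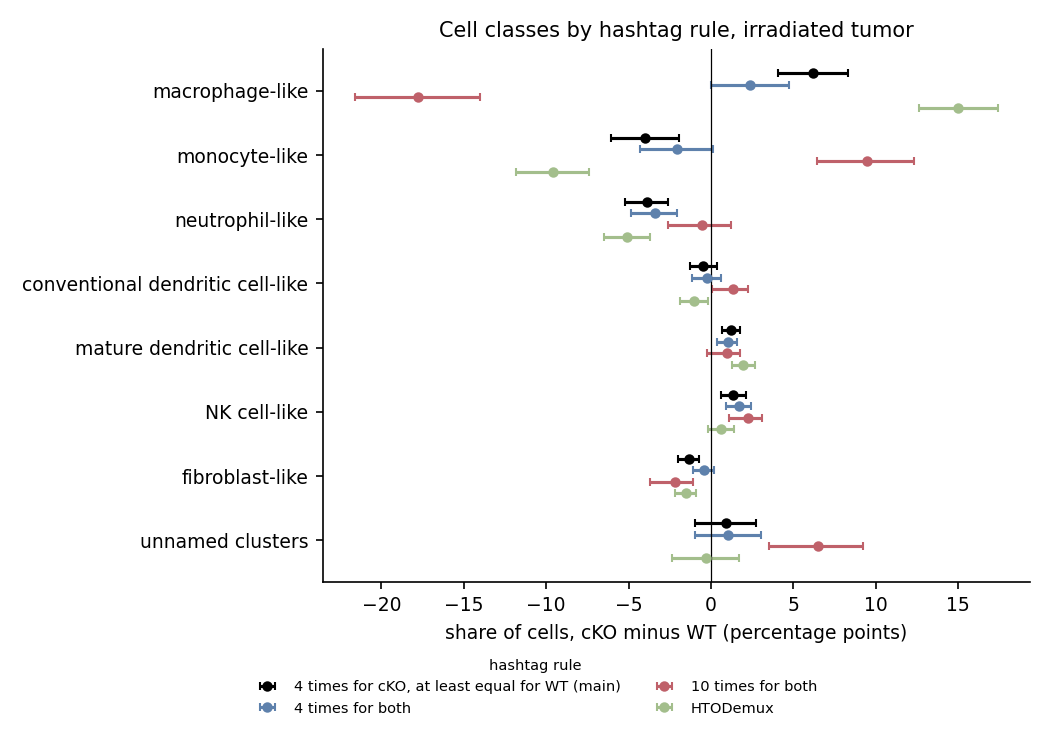
Difference in the share of cells between cells labelled cKO and WT in percentage points for each class, under 4 hashtag rules, with 95% Newcombe intervals. The macrophage-like difference runs from -17.8 to 15 points, while the mature dendritic cell-like and NK cell-like differences lie above 0 under each rule.

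UMI sums over all cells were then compared gene by gene. A gene was counted where it had at least 100 UMIs over both groups, and it was called higher or lower where its log2 ratio of CPM, with 1 UMI added, was at least 1 or at most -1. A sum moves both with the mix of cells and with the level per cell, which it cannot tell apart. Of 10146 genes, 20 were higher in cells labelled cKO (0.197%) and 80 were lower (0.788%), and 94.0% had a ratio within 0.5 of 0. Only 8 of the 20 higher genes had at least 100 UMIs in each group. Intervals lay wholly above 1 for 7 of the 20 and wholly below -1 for 21 of the 80. The remaining calls were within counting error of the limit. The median over all genes was 0.03. Weighing every cell equally gave 46 higher and 96 lower. In the control tumor 361 were higher and 148 lower of 10770 counted.

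Most of the lower genes came from very few cells. In 70 of the 80, over 50% of the UMIs lay in the 143 fibroblast-like cells, 1.95% of all cells, and the median over the 80 genes was 90.8% against 8.46% over all counted genes. The lowest ratios included genes of mitosis. Depdc1a, a mitotic regulator, was 0.941 CPM in cKO and 3.66 CPM in WT (-1.91, -2.67 to -1.30). The mitotic motor genes Kif4 (-1.64), Kif11 (-1.43), Kif20a (-1.43) and Cenpe (-1.41), the cohesin protector Sgo1 (-1.63) and the spindle gene Ckap2 (-1.40) were also lower. Each had between 82.5% and 93.4% of its UMIs in fibroblast-like cells. The same cells held most UMIs of Ubd (a ubiquitin-like modifier, -1.78), Lockd (a noncoding RNA, -1.58), Nppb (a natriuretic peptide, -1.44, with 99.8% of UMIs there), and of the transcription factor genes Tfap4 (-1.43) and Mxd3 (-1.42), with 80.6% or more of UMIs there. Weighing every cell equally put Cenpe (-0.50), Ckap2 (-0.33), Kif20a (-0.81), Lockd (-0.72), Mxd3 (-0.30), Sgo1 (-0.59) and Ubd (0.15) short of the limit.

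A cluster of 41 fibroblast-like cells led by Ube2c, Cenpf and Birc5 had a median of 50420 UMIs per cell, with 27 cells labelled WT and 14 labelled cKO. Fibroblast-like cells held 9.13% of all WT UMIs and 5.46% of cKO UMIs. Without these cells, chosen after the data were seen, 12 genes were lower (0.126% of 9557) and 18 were higher (0.188%). Of the 80 lower genes 9 remained called, and of the 20 higher genes 13. Of the 71 lower genes no longer called, 63 fell under the minimum of 100 UMIs, and 16 of these still had ratios of -1 or below, such as Kif11 (-1.93), Tfap4 (-1.37) and Depdc1a (-1.25). Of the 7 higher genes no longer called, 3 fell under the minimum, among them Fam234b, still at 1.01. Among the fibroblast-like cells 9.79% had a doublet score in the top 6%, against 7.91% of macrophage-like cells.

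All 16 genes of the proliferation list had ratios below 0, with a median of -0.86, and 4 of them were called lower: Cenpf (-1.22), Birc5 (-1.16), Top2a (-1.13) and Ube2c (-1.04). Mki67, the Ki-67 antigen, was 15.5 CPM in cKO and 28.8 CPM in WT (-0.89). Without the fibroblast-like cells the median was -0.09 over the 11 members that kept 100 UMIs and -0.23 over all 16, of which 13 lay below 0. It was -0.24 when every cell was weighed equally and -1.70 with the 10-fold margin. Within macrophage-like cells 8 members were counted, with a median of -0.40 and 1 above 0, and Mki67 (-1.26) and Top2a (-1.01) passed the limit there. The share of cells with an Mki67 UMI was 3.02% in cKO and 3.33% in WT (0.681% and 0.907% at 1000 UMIs). The fibroblast markers had 6 of 6 counted members below 0 with a median of -0.94, among them Dcn (decorin, 42.8 against 100 CPM, -1.23) and Col1a1 (-1.08), which were called lower. Their median was -2.19 with the 10-fold margin. The fibroblast markers Lum, Pdgfra and Postn had 1, 29 and 6 UMIs in WT and 0, 13 and 6 in cKO, too few to be counted.

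The remaining lower genes were few. Igkc, Igha and Jchain, the light chain, heavy chain and joining chain genes of an IgA antibody, had the lowest ratios (-8.05, -6.96 and -6.99). They came from 1 barcode labelled WT, which held 4253 of the Igkc, 527 of the Igha and 544 of the Jchain UMIs. Over all other cells Igkc had 21 UMIs in WT and 18 in cKO. Lipg, endothelial lipase, was 2.45 CPM in cKO and 7.54 CPM in WT (-1.61, -2.06 to -1.20), with 60.7% of its UMIs in monocyte-like cells, and its ratio was between -2.01 and -1.76 under the other hashtag rules. Retnlg, a resistin-like gene of neutrophils, was 12.9 and 29.1 CPM (-1.17, -1.37 to -0.98). The other lower genes with most UMIs outside the fibroblast-like cells were Sema3c, a semaphorin (-1.21, and -0.58 without those cells), and the gene models G530011O06Rik (-1.98), Gm47283 (-1.28) and 4732465J04Rik (-1.13).

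**Figure D4:**
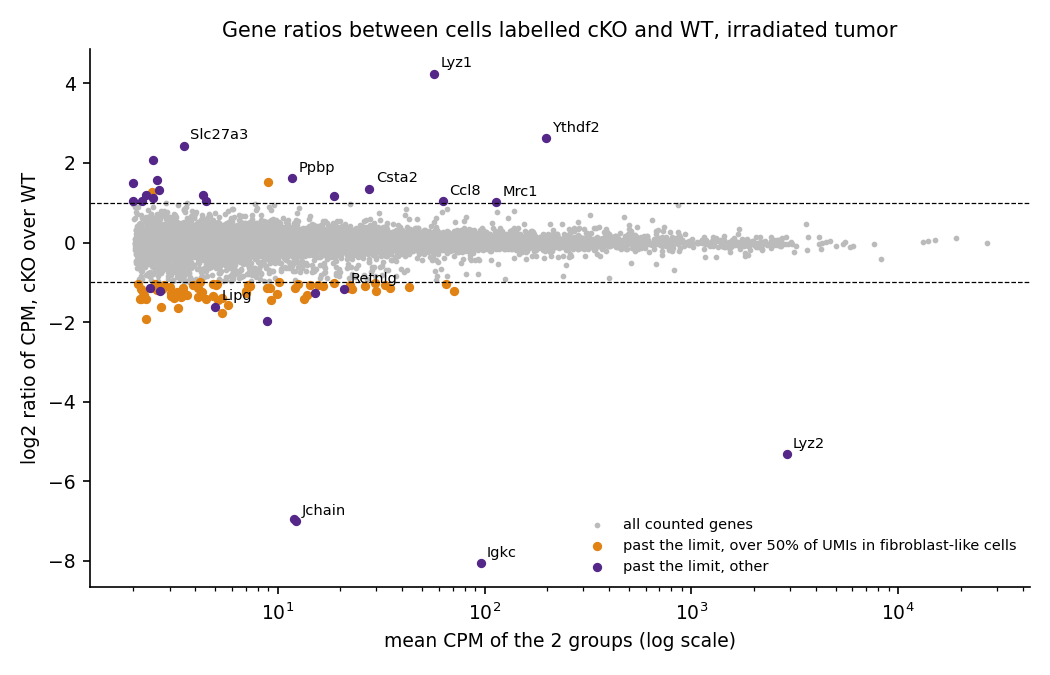
Log2 ratio of CPM between cells labelled cKO and WT against mean CPM (log axis) for 10146 genes with at least 100 UMIs. Points past the dashed limits are colored by whether over 50% of their UMIs lie in fibroblast-like cells, which holds for 70 of the 80 lower genes.

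The genes higher in cells labelled cKO, beside Ythdf2 and Lyz1, were spread over several classes. In the mature dendritic cell-like class, Slc27a3 (a fatty acid transport protein, 5.98 against 1.07 CPM, ratio 2.44, 1.86 to 3.17) had 94.0% of its UMIs. Scin, which severs actin filaments (2.07, 1.43 to 2.87), and the BCL2 family gene Bcl2l14 (1.5) had 89.1% and 79.4% there. Scin was found in 42 cells, and the top cell held 24.8% of its UMIs. The class held 85 cells labelled cKO and 31 labelled WT. All 7 markers of mature dendritic cells had ratios above 0, with a median of 0.64 (0.41 to 1.01 under the other hashtag rules) and none past the limit. Among them Ccl22, a chemokine for regulatory T cells, was 78.0 against 45.9 CPM (0.76, and 0.55 to 1.36 under those rules), and Ccr7, the receptor that guides dendritic cells to lymph nodes, was 99.3 against 63.7 CPM (0.64). Cd209d, a C-type lectin gene (1.57), lay to 94.7% in conventional dendritic cell-like cells. Its ratio was 3.38 with a 4-fold margin for both, and 1 cell held 23.3% of its UMIs.

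In NK cell-like cells lay 93.2% of the UMIs of Gzmc, a granzyme (25.9 against 11.4 CPM, 1.18, 0.97 to 1.40, but 0.22 with the 10-fold margin), and 90.0% of those of Gimap1, a lymphocyte GTPase (1.2, and 0.89 with HTODemux and 2.85 with the 10-fold margin). Gzmc was found in 42 cells, and the top cell held 21.7% of its UMIs. The 7 NK cell markers had a median of 0.47 and all lay above 0, from Klrb1c at 0.35 to Eomes at 0.99. The median was 0.21 with HTODemux and 1.63 with the 10-fold margin. The 6 counted T cell markers had a median of 0.63 and also lay above 0, at low levels that summed to 22.6 CPM in WT. Igfbp7 (1.53) and Bmp2 (1.27) lay to 97.4% and 93.6% in fibroblast-like cells, and the top cell held 56.1% of the Igfbp7 UMIs. The endothelial markers Plvap (11 UMIs in WT, 83 in cKO), Egfl7 (13 and 59) and Cdh5 (14 and 44) were under the minimum. Their ratios of 2.57, 1.86 and 1.35 became 0.41, 0.56 and -0.0 without the fibroblast-like cells. Pecam1 (0.49) and Kdr (0.02) became 0.35 and -0.18. The name fibroblast-like may therefore cover more than 1 cell type. Igfbp7 was 0.57 and Bmp2 0.79 with the 10-fold margin.

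Macrophage-like cells held most UMIs of the other named higher genes. Ppbp, the precursor of the chemokine CXCL7, was 17.7 CPM in cKO and 5.76 CPM in WT (1.61, 1.34 to 1.91), and 91.8% of its UMIs lay in that class. The ratio of Ppbp was 0.42 when every cell was weighed equally. Ppbp was found in 81 cells, and the top cell held 14.5% of its UMIs. Csta2, a cystatin family gene, was 39.9 and 15.6 CPM (1.36, 1.18 to 1.54), and 0.83 with equal weights. Gas6, a ligand of the TAM receptors that clear dying cells, had a ratio of 1.32 (0.86 with equal weights) and Ccl8, a monocyte-attracting chemokine, of 1.05 (0.94 to 1.16, 85.1 against 41.1 CPM, and 0.89 within macrophage-like cells). The Ccl8 ratio was 2.03 with a 4-fold margin for both, where WT UMIs dropped from 921 to 373, 1.58 at a margin of 10, and 2.21 within macrophage-like cells at a margin of 4. Mrc1, the mannose receptor CD206 of tissue macrophages, was 152 against 75.3 CPM (1.01, 0.93 to 1.10), and between 0.41 and 1.34 under the other hashtag rules. Nxpe5 (1.05), Xlr (1.11) and Fam234b (1.04) passed the limit at lower counts, and the first 2 fell short of it with the 10-fold margin (0.67 and 0.39). Cd101 (1.04) and the gene model Gm47662 (1.2) completed the 20 higher genes.

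Macrophage markers were described next. Of 10 markers 9 had ratios above 0, with a median of 0.46 (0.16 to 0.70 under the other hashtag rules), and only Mrc1 passed the limit. The C1q genes, which encode the recognition subunits of complement, had similar ratios, with C1qa at 573 against 368 CPM (0.64, 0.60 to 0.68), C1qb at 0.57 and C1qc at 0.68. Cd81 was the exception at -0.11. Within macrophage-like cells the values were 0.46 for C1qa, 0.39 for C1qb, 0.51 for C1qc and 0.84 for Mrc1, so the ratios were smaller but of the same sign. There they also varied less with the hashtag rule, from 0.42 to 0.50 for C1qa and from 0.74 to 0.92 for Mrc1. In all cells C1qa ranged from 0.15 to 0.91.

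Of 8163 genes counted within macrophage-like cells, 11 were higher (0.135%) and 19 lower (0.233%) in cells labelled cKO. Ppbp (39.0 against 11.8 CPM, 1.72, 1.41 to 2.06) and Csta2 (64.9 against 19.8 CPM, 1.71) led the higher genes with Gas6 (1.25), Nxpe5 (1.23) and Olfml3, an extracellular matrix gene (1.10). Phlda3, a target of p53 that restrains AKT, was 14.7 against 7.15 CPM (1.03, 0.61 to 1.49), and it was 0.56 with the 10-fold margin and 0.29 in all cells. Mrps2 and Ppp1r3d had 1.05 and 1.03. The lower genes included the cytokine genes Tnfsf15 (3.27 against 9.21 CPM, -1.47, -2.10 to -0.91) and Il23a (-1.18), Plet1 (-1.39), Mki67 (-1.26) and the neutrophil chemokine receptor Cxcr2 (-1.13). Gzma (-1.29) was among them although it was 0.47 in all cells, and Jchain had 544 of its UMIs in WT from the 1 barcode above.

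The neutrophil-attracting chemokine genes Cxcl1, Cxcl2 and Cxcl3 had ratios below 0, unlike Ppbp above. Cxcl1 was 281 CPM in cKO and 519 CPM in WT (-0.88, -0.93 to -0.84), Cxcl2 was 7090 and 9360 CPM (-0.40) and Cxcl3 was 1020 and 1309 CPM (-0.36). The 3 values lay below 0 under the other hashtag rules and within macrophage-like cells (-0.54, -0.42 and -0.42). None passed the limit in all cells. The Cxcl1 ratio was past it with margins of 4 (-1.05) and 10 (-1.65) for both and within monocyte-like cells (-1.26), and it was -0.72 with HTODemux and -0.49 without the fibroblast-like cells. Of 10 neutrophil markers 9 lay below 0, with a median of -0.54: S100a9, an alarmin subunit, was 630 against 1020 CPM (-0.70), G0s2 was -0.85 and S100a8 was -0.52, and only Retnlg was called lower. With the 10-fold margin the list median was -0.16 and G0s2 was 0.03 (-0.06 to 0.13). Within neutrophil-like cells the median of 9 markers was 0.12, with S100a9 at 0.05.

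Other chemokines differed in both directions. Ccl12 (0.36), Ccl24 (0.46), Ccl7 (0.21) and Ccl5 (559 against 438 CPM, 0.35) were above 0, and Ccl3 (-0.32), Cxcl10 (-0.33) and Ccl17 (-0.21) were below. With the 10-fold margin Cxcl10 turned to 0.39 (0.35 to 0.42) and Ccl5 was 0.85. Of 18 chemokine ligands, 9 lay above 0 and 9 below, with 1 called, Ccl8. For the genes of migration and suppression that the study named, 5 of 7 lay above 0 with a median of 0.33 and none was called. Arg1, arginase 1, was 4173 CPM in cKO and 3015 CPM in WT (0.47, 0.46 to 0.48), but -0.03 with the 10-fold margin and 0.26 within macrophage-like cells. Ccr2, the receptor that brings monocytes out of the marrow, was 428 against 341 CPM (0.33), and 0.49 with the 10-fold margin. Ccl2, its ligand, was -0.07 and Cxcl16 was 0.27. Il10 was at 3.31 and 3.93 CPM (-0.24, -0.69 to 0.20), an interval that included 0. Nos2, which makes nitric oxide, was 336 against 233 CPM (0.53), 0.18 with the 10-fold margin and 0.14 within macrophage-like cells. The matrix protease gene Mmp13 was 176 against 101 CPM (0.80), and 0.01 with the 10-fold margin.

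NF-κB subunit genes had ratios near 0, and most NF-κB target genes lay below 0. The 5 subunit genes lay between -0.11 (Nfkb2) and 0.10 (Rela). Of the 17 target cytokine and effector genes, 13 lay below 0, with a median of -0.10 and none past the limit. In the control tumor their median was 0.3, with 12 of 17 above 0. After IR they ranged from -0.88 to 0.28, with 11 intervals below 0 and 1 above. The lowest members were Cxcl1, Cxcl2, Cxcl3 and Ccl3, with ratios given above. Tnf was 190 against 223 CPM (-0.23), Il6 was -0.24, Il1a was -0.10 and Il1b, at 7505 against 7743 CPM, was -0.05. The feedback inhibitor gene Nfkbia was 1670 against 2066 CPM (-0.31, and -0.13 with the 10-fold margin) and Tnip3 was 0.53, while the 10 feedback inhibitors had a median of 0.02. The 5 negative regulators of NF-κB that the study named had a median of 0.02, which was -0.04 with HTODemux and 0.22 with the 10-fold margin. Among them were Tnfaip8l2 (63.2 against 47.1 CPM, 0.42, 0.31 to 0.54), Smpdl3b (0.27), Metrnl (0.02) and Socs3 (-0.15). This list and that of migration and suppression were chosen by the study and are not independent evidence of a direction. Tnfaip8l2 was between 0.37 and 0.62 under the other hashtag rules.

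Interferon-induced genes were near 0. Of 23 counted members 8 lay above 0 and 15 below, with a median of -0.05 and a range of -0.28 (Ifit3b) to 0.20 (Cmpk2). Rsad2, the antiviral viperin, was 981 against 1053 CPM (-0.10), Isg15 was 2174 against 2134 CPM (0.03) and Irf7 was -0.16. With the 10-fold margin the median was 0.33, Rsad2 was 0.33 and Isg15 was 0.43, and the median was 0.07 within macrophage-like cells. In the control tumor the same list had a median of -0.88, with 1 of 23 members above 0. The median of 14 interferon-γ targets was 0.08 and -0.47 in the control tumor. The antigen presentation lists were also near 0, with medians of 0.04 for the 9 MHC class II genes (H2-Ab1 2005 against 1953 CPM) and 0.03 for the 9 MHC class I genes, against -0.50 and -0.42 in the control tumor. Whether the comparisons in the irradiated and the control tumor differed could not be tested with 1 pool per group.

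**Figure D5:**
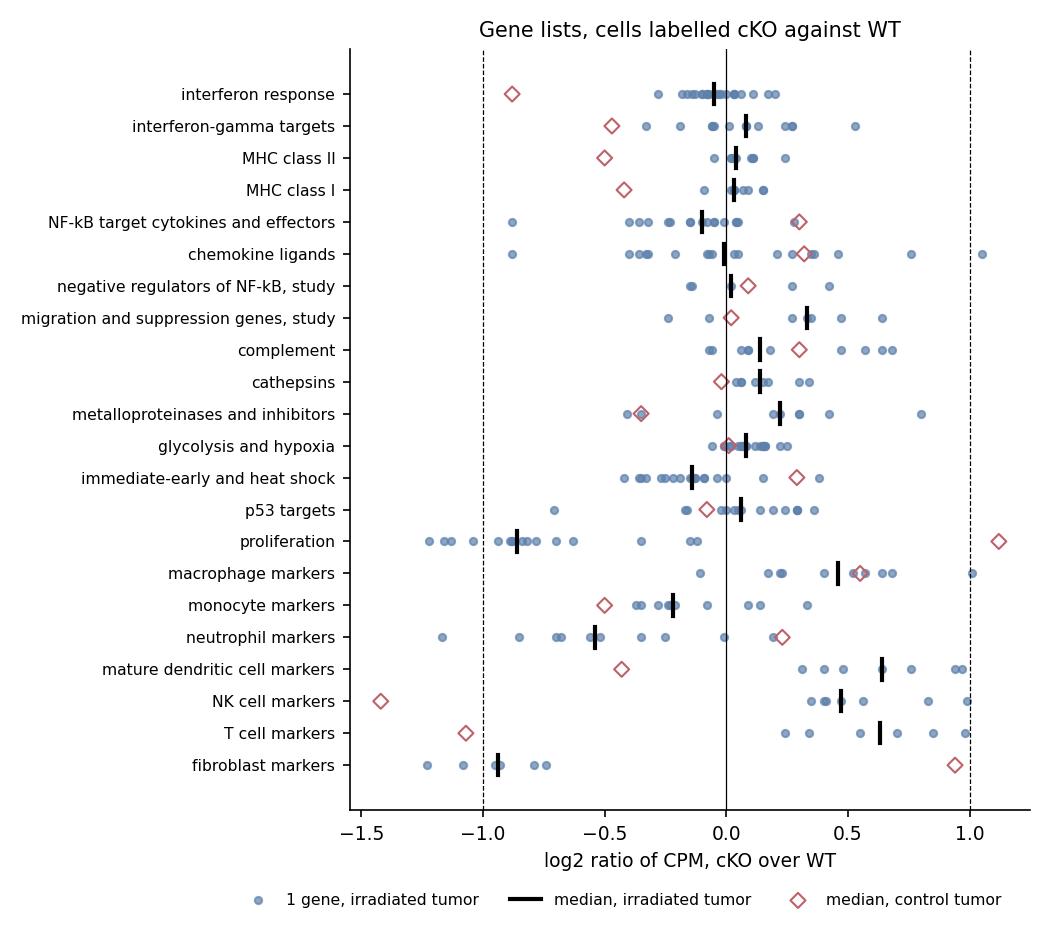
Log2 ratio of CPM between cells labelled cKO and WT in the irradiated tumor for the counted genes of 22 lists (points), with the list median (bar) and the median in the control tumor (open diamond). The interferon list clusters at 0 in the irradiated tumor while its control tumor median is -0.88, and proliferation and fibroblast genes lie below 0 with control medians of 1.12 and 0.94.

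Lists of general metabolism and stress showed small values. The 8 counted cathepsin genes lay above 0 with a median of 0.14, led by Ctsc (1891 against 1498 CPM, 0.34), and 17 of 20 glycolysis and hypoxia genes lay above 0 with a median of 0.08. Of 18 immediate-early and heat shock genes 15 lay at or below 0 with a median of -0.14, among them Fos (-0.22), Egr1 (-0.36) and Ier3 (-0.27), and Egr2 was 0.38. The 15 p53 targets had a median of 0.06, and Cdkn1a, the cell cycle inhibitor p21, was 1462 against 1405 CPM (0.06). The 80 ribosomal protein genes (-0.02) and the 85 nuclear oxidative phosphorylation genes (0.02) had medians near that of all genes. No member of these 6 lists was called.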

How the data were processed

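Per the file headers and the labels, the authors deposited raw counts of UMIs per gene and barcode from 10x Genomics 3′ v3.1 libraries, aligned with Cell Ranger to mm10 with GENCODE vM23, without normalization (the file headers name Cell Ranger 4, the processing notes 6.0.1). Each matrix held 32285 genes and 2 hashtags. Cells were filtered and labelled as stated above. Clustering used Seurat 5.3.0 (2000 variable genes without Ythdf2, Lyz1 and Lyz2, 40 components, resolution 0.8). A marker was raised in a cluster where at least 25% of cells had a UMI and CPM, with 5 added, was at least 2 times that of other cells. These naming thresholds were set after the data were examined. Scrublet made 0 doublet calls by itself, so its top 6% scores were used as an alternative only. No doublets were removed otherwise.

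Intervals are Poisson for CPM, exact conditional binomial for ratios, Clopper-Pearson for shares and Newcombe for share differences. The code was tested on simulated counts. Positions come from GENCODE vM21 on the same build, matched by identifier for each named gene. Named genes were the label genes, the 15 highest and 15 lowest called genes without unnamed models and immunoglobulin segments, list members, and the 8 highest and lowest in macrophage-like cells. Jchain is listed under this rule. Other genes called outside it (such as Igkc, Igha, Cd101, Sema3c and gene models) were chosen after their values were seen. Members and lists were chosen with earlier results of these data known. Alternatives were other hashtag rules, filters, scalings and cell sets. Some genes that the naming rule picks are not reported here.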

Additional observations from a re-analysis of the deposited data

Results flagged for a closer look

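The 501 barcodes with B0302 above B0301 but under 4 times as high belonged to neither group. Their Lyz2 level was 2335 CPM, above the 142 CPM of cells labelled cKO and below the 5620 CPM of cells labelled WT, and their median gene UMIs were 6200. They entered no comparison.

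For 6 gene lists the median ratio between cells labelled cKO and WT had opposite signs in the irradiated and the control tumor, at 0.25 or more in size in both. The difference was not tested, since each group was 1 pool. The proliferation list had a median of -0.86 after IR and 1.12 in the control tumor, where 16 of 16 genes lay above 0. The fibroblast markers had -0.94 and 0.94. The NK cell markers had 0.47 after IR and -1.42 in the control tumor, where 0 of 7 lay above 0, and the T cell markers had 0.63 and -1.07. Mature dendritic cell markers had 0.64 and -0.43, and conventional dendritic cell markers had 0.29 and -0.47.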

How the results depend on the processing

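No paired analysis was possible because each group was 1 pool with 1 replicate number. Against the 20 genes called higher and 80 called lower of 10146 counted, a 10-fold hashtag margin gave 65 and 364, and HTODemux 32 and 101. Macrophage-like cells only gave 11 and 19 of 8163, and cells without the fibroblast-like ones 18 and 12 of 9557. A minimum of 20 UMIs gave 127 and 253, a minimum of 500 UMIs 7 and 25, and equal weight per cell 46 and 96. The 109 WT and 118 cKO cells under 500 gene UMIs in every other matrix gave 4 and 11. The number of genes counted changed with the cells and the minimum, so these counts are not comparable as shares. The Ythdf2 ratio (2.62) was 2.84 and 2.91 with margins of 4 and 10 for both labels and 2.71 with HTODemux. It was 2.73 without the top 6% of doublet scores and 2.83 in macrophage-like cells. Without fibroblast-like cells it was 2.71, and in the cells under 500 UMIs elsewhere 0.73. The Lyz2 ratio (-5.31) was, in the same order, -5.19, -6.13, -6.51, -5.85, -5.11, -5.42 and -3.10, and it was -5.38 with equal weight and -5.41 without barcodes that also passed in the control tumor. The interferon median (-0.05) was 0.33 with the 10-fold margin and 0.07 in macrophage-like cells. The NF-κB target median (-0.10) was -0.05 with HTODemux, -0.19 in macrophage-like cells and with equal weight, and -0.15 without fibroblast-like cells. It was 0.04 in the cells under 500 UMIs elsewhere. The macrophage-like difference in share (6.22 points) was 2.38 and -17.8 with margins of 4 and 10, and 15 with HTODemux. It was 2.84 at a clustering resolution of 1.2, where the class held only 8.88% of WT and 11.7% of cKO cells. In the cells under 500 UMIs elsewhere it was 0.995. The neutrophil-like difference (-3.90) was -0.516 with the 10-fold margin and 1.21 in the cells under 500 UMIs elsewhere. The macrophage marker median became -0.14 in these, and Ubd became 0.15 with equal weight. The cause was not tested. Of 425 other values of single genes and lists, 416 had the sign of the value reported. Many of these alternatives used nearly the same cells and sums, and genes under the minimum in an alternative had no value there. The count is therefore not an independent check of the signs. Leaving out fibroblast-like cells and barcodes that passed in the control tumor were alternatives chosen after seeing the data. With 1 pool of mice per label, variation between mice is unknown, and no interval covers it.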

Other observations

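Pf4 and Ppbp are chemokines of platelets that macrophages can also express. Pf4 (CXCL4) was 1139 CPM in all cells labelled cKO and 588 CPM in those labelled WT (log2 ratio 0.95, 0.92 to 0.98), and within macrophage-like cells it was 2420 against 1390 CPM (0.80). Like Ppbp, it had the same sign under the other hashtag rules in that class, from 0.75 to 0.86 for Pf4 and from 2.04 to 2.42 for Ppbp. The platelet membrane genes Gp9, Gp1bb and Itga2b had 1, 1 and 16 UMIs in cells labelled cKO and 2, 1 and 14 in cells labelled WT. The source of Pf4 and Ppbp was not tested.

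Lipid-binding genes differed less evenly. Fabp5 was 576 against 425 CPM (0.44) and 0.69 within macrophage-like cells, Apoe was 0.40 and Abca1 0.38, while Cd9 was -0.22 and the median of the 13 lipid-associated macrophage genes was 0.03. Fabp4 was 7.26 against 4.20 CPM (0.79, 0.43 to 1.16).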
